A study of Mus musculus with 24 samples.

Results

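The 9 genes described here are ligands, feedback inhibitors and early target genes of the TGF-beta and BMP pathways, followed in the epithelial fraction of mouse lung organoids after exposure to nylon microfibers. They were taken from a list of pathway genes, 9 of the 14557 gene symbols with counts in that fraction: the ligands Tgfb1, Tgfb2 and Bmp4, the BMP-responsive genes Id1, Id2, Id3 and Smad6, and the TGF-beta-responsive genes Smad7 and Skil. All 9 passed the filter on low counts. The listed transcript with most counts on average in the 12 epithelial libraries stands for each gene.

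The study asked how nylon 6,6 fibers act on lung organoids grown from primary epithelial cells and fibroblasts. Wells of 6-well plates held in Matrigel 200000 EpCAM-positive lung cells of wild-type C57BL6 mice (female), together with 200000 cells of the fibroblast line CCL206, derived from a ddY mouse (male). The wells received no fibers (control), 12000 fibers or 30000 fibers of 12 by 31 micrometers for 7 days, and beads against EpCAM, an epithelial surface protein, then separated an epithelial from a fibroblast fraction. Each of the 3 groups had 4 epithelial libraries, 1 for each of mouse 1 to 4. All groups, controls included, share the same fibroblast line, and cells from separate isolations stand behind the 4 mice. In the deposited table the fibroblast columns do not line up with the gene names, so the fibroblast fraction is not analysed here by gene.

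TGF-beta and BMP ligands bind pairs of serine/threonine kinase receptors, which phosphorylate SMAD2 and SMAD3 for TGF-beta and activin, and SMAD1, SMAD5 and SMAD9 for BMP. These join SMAD4, enter the nucleus and induce early targets, among them genes for proteins that shut the pathway down again. In the lung, BMP4 is known for its part in patterning the growing distal epithelium, and TGF-beta for restraining epithelial growth and driving matrix production. The target genes do not report on 1 pathway alone: TGF-beta is known to repress Id genes in epithelial cells, and BMP can induce Smad7.

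Summed over all listed transcripts, control libraries held 21222034 to 28232472 counts, 12000-fiber libraries 20103389 to 31119155, and 30000-fiber libraries 6767842 to 9234052. The 30000-fiber libraries stood apart in depth and in the share of mitochondrial genes among counts on representative transcripts, which lay at 5.20% to 7.77% in control libraries, 5.33% to 6.91% in 12000-fiber libraries and 14.3% to 16.3% in 30000-fiber libraries. Epithelial markers (12 of 12 listed genes had counts) summed to 7390 to 8478 CPM in control libraries, to 7835 to 8916 CPM with 12000 fibers and to 4679 to 5375 CPM with 30000 fibers. Here CPM means counts per 1e6 counts of the TMM-scaled total on representative transcripts. Fibroblast markers (13 of 15 with counts, Thy1 and Tcf21 without a row) summed to 604 to 1620 CPM in control libraries, to 1894 to 2220 CPM with 12000 fibers and to 3120 to 4168 CPM with 30000 fibers. Of the 12 epithelial markers tested, 4 rose and 6 fell at 12000 fibers against control (adjusted p under 0.05, test below). At 30000 fibers 9 of them fell and 2 rose, Cldn3 and Cldn18. Of the 12 fibroblast markers tested, 9 rose and Fbln1 fell at 12000 fibers, and 11 rose and Fbln1 fell at 30000 fibers. Of all genes tested, 38% and 65.6% changed at these doses. Immune markers (4 of 7 with counts) summed to 376 to 825 CPM, 864 to 1229 CPM and 979 to 1272 CPM in the same order of doses. Endothelial markers (3 of 7 with counts) summed to 3.90 to 5.34 CPM over all 12 libraries. In such bulk fractions, fewer cells of a type and less RNA per cell cannot be told apart.

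The target genes did not move together. At 12000 fibers Id1, Id2 and Smad6 were lower and Id3 and Smad7 higher than in controls. At 30000 fibers Id1, Id2 and Id3 were higher and Smad6 and Skil lower than in controls, Bmp4 was higher, and Tgfb1 and Tgfb2 did not pass the test in any of the 3 comparisons. At 12000 fibers against control 5 of the 9 genes passed (adjusted p under 0.05, edgeR quasi-likelihood test with Benjamini-Hochberg adjustment over 13759 genes), 2 higher and 3 lower, while 38% of all genes tested passed, 18.7% higher and 19.3% lower. At 30000 fibers against control 6 of 9 passed, 4 higher and 2 lower, against 65.6% of all genes, 32.2% higher and 33.4% lower. Between 30000 and 12000 fibers 7 of 9 passed, 4 higher and 3 lower, against 55.4% of all genes, 28.3% higher and 27.1% lower. No count is read as particular to these genes, and at 30000 fibers against control the share of the 9 is about that of all genes. Scaling by library totals alone, without TMM factors, moved the median of all genes by -0.22 on the log2 scale at 30000 fibers against control and by -0.21 between the doses. Higher genes then made up 33.7% of all genes called at 30000 fibers against control (49.1% with TMM) and 32.9% between the doses (51.1% with TMM). For the 9 genes that scaling gave 3 higher and 5 lower at 30000 fibers against control, and 4 higher and 5 lower between the doses.

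**Figure D1:**
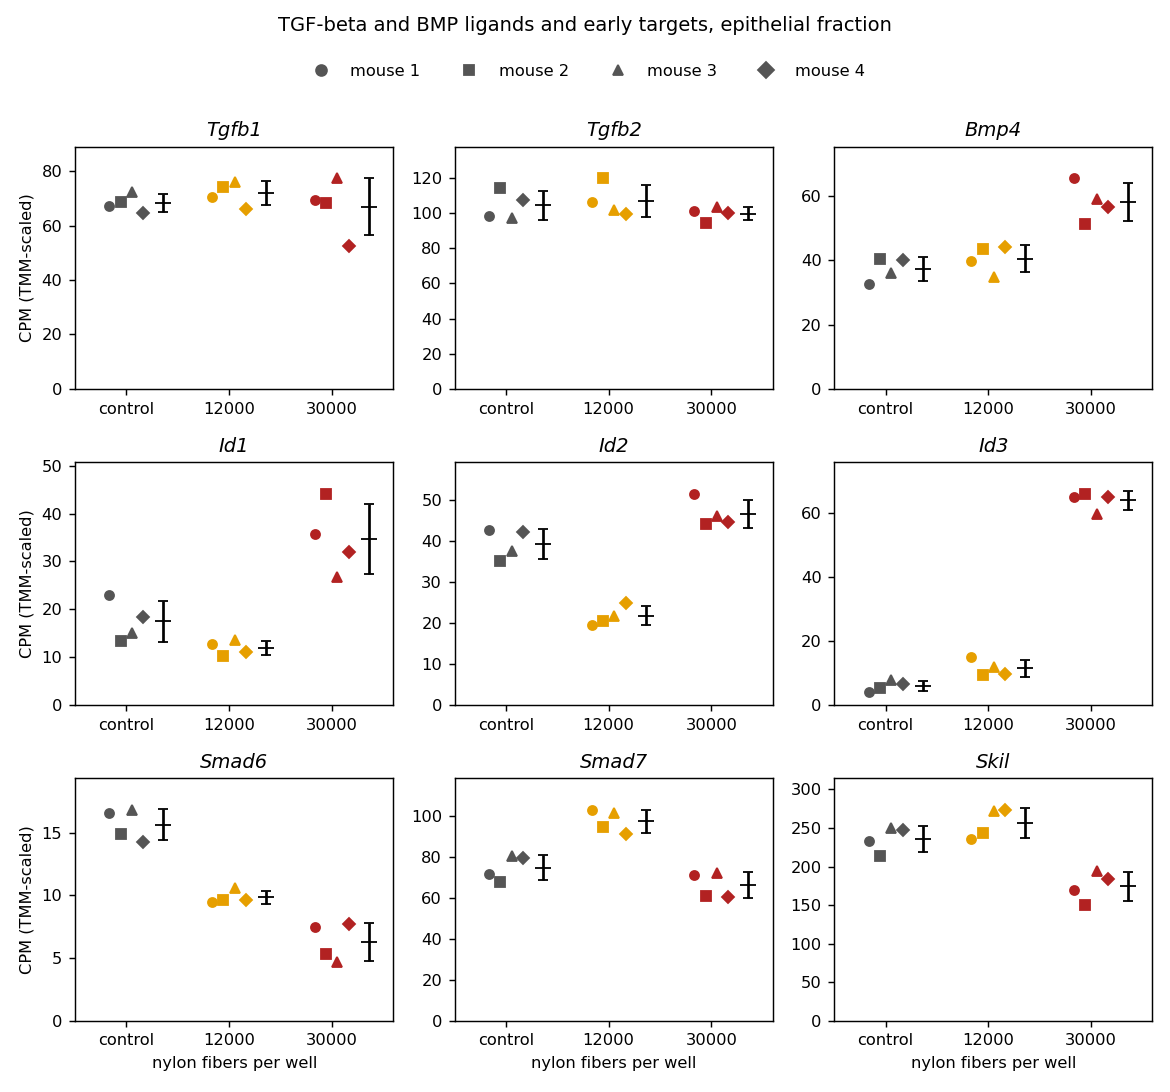
CPM (TMM-scaled) of each of the 9 genes in the 12 epithelial libraries by fiber number per well. Each symbol is 1 mouse, the bars give mean and SD over 4 libraries, and every axis starts at 0. All 4 Id3 values at 30000 fibers (59.8 to 66.0 CPM) lie above all other Id3 values, while Tgfb1 and Tgfb2 overlap between groups.

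The promoters of the genes that changed are shown first, because SMAD complexes bind short known sites in such windows. Of the 9 genes, 6 had an entry in the RefSeq promoter table (GRCm38.p6); Id1, Smad7 and Skil had none. Over the 250 bases before the RefSeq start, both strands were searched for the palindrome GTCTAGAC, for CAGAC, the core of sites bound by SMAD3 and SMAD4, and for GGCGCC, a GC-rich site that BMP SMADs can bind. None of these motifs contains another. GTCTAGAC occurs in 0.167% of 32851 promoters and in none of the 6. CAGAC occurs in 42.2% of them, and in Id3 and Tgfb2, with 2 matches each. GGCGCC occurs in 9.59% of them, and in Id2. The lines below run 5′ to 3′ on the gene's own strand, with motif matches in capitals.

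Bmp4 (chr14:46390670-46390919, minus strand, no match): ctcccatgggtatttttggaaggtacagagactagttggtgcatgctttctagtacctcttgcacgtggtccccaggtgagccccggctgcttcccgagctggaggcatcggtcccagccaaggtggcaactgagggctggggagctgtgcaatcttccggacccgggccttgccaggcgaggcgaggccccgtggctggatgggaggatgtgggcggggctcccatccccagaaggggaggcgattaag
Smad6 (chr9:64022060-64022309, minus strand, no match): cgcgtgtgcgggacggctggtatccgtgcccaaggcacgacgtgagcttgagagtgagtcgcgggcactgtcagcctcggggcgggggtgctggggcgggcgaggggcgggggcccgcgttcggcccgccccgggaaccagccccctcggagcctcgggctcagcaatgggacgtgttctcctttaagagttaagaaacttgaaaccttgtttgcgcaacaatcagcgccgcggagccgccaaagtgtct
Id2 (chr12:25096254-25096342, minus strand, GGCGCC): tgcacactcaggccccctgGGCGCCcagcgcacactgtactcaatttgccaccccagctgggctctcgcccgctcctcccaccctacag
Id3 (chr4:136143645-136143669, plus strand, CAGAC): tcctcggcgtCAGACcagcctaagg

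The Id2 line covers 162 to 250 bases before the RefSeq start, since an exon of the gene in GENCODE M21 cuts it short. The Id3 line is only 1 of its sites with flanks, 153 to 177 bases before the RefSeq start. In GENCODE M21 that Id3 stretch lies inside an exon of the gene, downstream of the start of the Id3 transcript counted here. The Id2 stretch lies outside exons of the gene, but it too is downstream of the start of the Id2 transcript counted here (25097140). A match describes letters in these windows, not binding. Genes with and without a match were among those that changed.

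Among the ligands, Bmp4 was the only 1 of the 3 that passed a test. Bmp4 (chromosome 14, 46383520 to 46390669, minus strand, GRCm38; ENSMUST00000074077) encodes a BMP secreted in the developing lung. It stood at 32.5, 40.4, 36.0 and 40.2 CPM in controls, at 39.7, 43.4, 34.9 and 43.9 CPM at 12000 fibers, and at 65.4, 51.1, 58.9 and 56.5 CPM at 30000 fibers (mice 1 to 4). Every library at 30000 fibers was above every other one, and the control and 12000-fiber libraries overlapped. Bmp4 rose at 30000 fibers by a log2 fold change of 0.63 ± 0.10 over control (SE, adjusted p = 1.45e-05) and by 0.52 ± 0.10 over 12000 fibers (adjusted p = 2.01e-04). At 12000 fibers against control it was 0.12 ± 0.09 (adjusted p = 0.348). With library totals alone in place of TMM factors, the change at 30000 fibers was 0.41 against control and 0.31 against 12000 fibers.

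Tgfb1 and Tgfb2 encode TGF-beta proteins that are secreted in a latent complex. Tgfb1 (chromosome 7, 25687002 to 25705077, plus strand; ENSMUST00000002678) stood at 67.4, 68.7, 72.3 and 64.8 CPM in controls, 70.6, 74.3, 76.1 and 66.2 CPM at 12000 fibers, and 69.3, 68.4, 77.4 and 52.4 CPM at 30000 fibers. Tgfb2 (chromosome 1, 186622792 to 186705989, minus strand; ENSMUST00000045288) stood at 98.3, 114, 97.2 and 107 CPM, at 106, 119.8, 102 and 99.4 CPM, and at 101, 94.2, 103 and 99.9 CPM in the same order. The groups overlapped for both genes. The log2 fold changes of Tgfb1 were 0.07 ± 0.08 at 12000 fibers (adjusted p = 0.530) and -0.03 ± 0.09 at 30000 fibers (adjusted p = 0.814), against control. Those of Tgfb2 were 0.03 ± 0.07 (adjusted p = 0.748) and -0.07 ± 0.08 (adjusted p = 0.448). For Tgfb1 the choice of transcript matters: with all its listed transcripts summed, it was higher at 30000 fibers by 0.32 over control (adjusted p = 0.00772) and by 0.25 over 12000 fibers (adjusted p = 0.0315). With library totals alone, both genes were lower at 30000 fibers, by a log2 change of -0.25 for Tgfb1 and -0.29 for Tgfb2 against control.

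Of the BMP-responsive genes, Id3 changed the most. ID proteins are helix-loop-helix factors without a DNA-binding region, which hold back differentiation by binding E proteins. Id3 (chromosome 4, 136143497 to 136145755, plus strand; ENSMUST00000008016), 1 of whose CAGAC matches is printed above, stood at 4.17, 5.16, 7.69 and 6.58 CPM in controls, 15.0, 9.33, 11.7 and 9.65 CPM at 12000 fibers, and 65.0, 66.0, 59.8 and 65.1 CPM at 30000 fibers. The 3 groups did not overlap, and the counts behind them were 36 to 65, 70 to 167 and 166 to 203 per library. Id3 rose by a log2 fold change of 0.98 ± 0.17 at 12000 fibers (adjusted p = 1.82e-04) and 3.44 ± 0.16 at 30000 fibers, or 10.9-fold (adjusted p = 7.05e-13), over control. It rose by 2.46 ± 0.15 at 30000 over 12000 fibers (adjusted p = 5.23e-11).

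The Id3 values moved with the fibroblast markers across the groups, and within the control and 12000-fiber groups. Within the controls, mouse 1 had both the lowest Id3 value (4.17 CPM) and the lowest fibroblast sum (604 CPM), and mouse 3 had the highest of both (7.69 and 1620 CPM). At 12000 fibers mouse 1 had the highest of both (15.0 and 2220 CPM) and mouse 2 the lowest (9.33 and 1894 CPM). At 30000 fibers the order differed: mouse 4 had the lowest fibroblast sum (3120 CPM) with an Id3 value of 65.1 CPM, and mouse 3 the lowest Id3 value (59.8 CPM) with a sum of 3530.4 CPM. With the mean log2 CPM of the fibroblast markers as a covariate, the change at 12000 fibers was 0.54 (adjusted p = 0.0842) and no longer passed. At 30000 fibers it was 2.62 (adjusted p = 5.53e-07). The fibroblast sums of the 3 groups did not overlap, so covariate and fiber number cannot be fully told apart in this or any other gene. Which part of the rise comes from fibroblast RNA was not tested.

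Id1 and Id2 followed another course, lower at 12000 fibers and higher at 30000 fibers. Id1 (chromosome 2, 152736251 to 152737410, plus strand; ENSMUST00000109824) stood at 23.0, 13.3, 15.1 and 18.3 CPM in controls, 12.6, 10.3, 13.5 and 11.1 CPM at 12000 fibers, and 35.7, 44.1, 26.8 and 32.1 CPM at 30000 fibers. The 30000-fiber libraries lay above all others. The 12000-fiber libraries overlapped with controls but were lower in all 4 same-mouse pairs. Id1 fell at 12000 fibers by 0.55 ± 0.17 on the log2 scale (adjusted p = 0.0170) and rose at 30000 fibers by 0.98 ± 0.17 over control (adjusted p = 7.30e-05) and 1.53 ± 0.18 over 12000 fibers (adjusted p = 1.42e-06). The fall no longer passed without control mouse 1 (-0.39, adjusted p = 0.0534), without 12000-fiber mouse 2 (-0.48, adjusted p = 0.0517) or with the fibroblast covariate (-0.34, adjusted p = 0.397). The rise over control did not pass once counts were corrected for a trend with transcript length in each library (0.36, adjusted p = 0.0656), while the rise over 12000 fibers did (0.93, adjusted p = 2.03e-04).

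Id2 (chromosome 12, 25093799 to 25097140, minus strand; ENSMUST00000221761) stood at 42.5, 35.0, 37.4 and 42.2 CPM in controls, 19.5, 20.5, 21.7 and 24.9 CPM at 12000 fibers, and 51.3, 44.1, 45.9 and 44.4 CPM at 30000 fibers. The 12000-fiber libraries were the lowest, with no overlap, and all 4 values at 30000 fibers were above the 4 of controls. Id2 fell at 12000 fibers by 0.86 ± 0.09 on the log2 scale (adjusted p = 8.07e-07) and rose at 30000 over 12000 fibers by 1.10 ± 0.10 (adjusted p = 2.23e-08). The difference between 30000 fibers and control was 0.24 ± 0.10 (adjusted p = 0.0365), and it did not pass with DESeq2 (adjusted p = 0.0609), with library totals alone (0.02), with the fibroblast covariate (0.44, adjusted p = 0.0750) or with the length correction (0.09, adjusted p = 0.445). It also did not pass without control mouse 2 (0.18), control mouse 3 (0.22), 30000-fiber mouse 1 (0.19) or 30000-fiber mouse 3 (0.25).

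Smad6, the inhibitory SMAD that acts mainly on BMP receptors and is itself induced by BMP, went the opposite way from Id1, Id2 and Id3 at 30000 fibers. Smad6 (chromosome 9, 63953076 to 64022059, minus strand; ENSMUST00000041029) stood at 16.6, 14.9, 16.8 and 14.3 CPM in controls, 9.50, 9.59, 10.6 and 9.65 CPM at 12000 fibers, and 7.44, 5.29, 4.71 and 7.68 CPM at 30000 fibers. The 3 groups did not overlap and stepped down with fiber number. The 30000-fiber values rest on 15 to 23 counts per library, against 129 to 153 in controls. Smad6 fell by 0.67 ± 0.12 on the log2 scale at 12000 fibers (adjusted p = 2.69e-04) and by 1.32 ± 0.16 at 30000 fibers (adjusted p = 6.87e-07) against control, and by 0.66 ± 0.17 at 30000 against 12000 fibers (adjusted p = 0.00314). It passed under every alternative setting tried in all 3 comparisons.

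Smad7 and Skil stand for the TGF-beta arm. Smad7 encodes the inhibitory SMAD that blocks TGF-beta receptors and is induced by TGF-beta. It stood at 71.5, 67.7, 80.4 and 79.2 CPM in controls, 103, 94.3, 101 and 91.1 CPM at 12000 fibers, and 71.3, 60.7, 72.1 and 60.5 CPM at 30000 fibers. The 12000-fiber libraries were all above the others, and the 30000-fiber libraries overlapped with controls. Smad7 rose at 12000 fibers by 0.38 ± 0.07 on the log2 scale (adjusted p = 3.75e-04), and with the fibroblast covariate it did not pass (0.30, adjusted p = 0.0510). Against 12000 fibers it fell by 0.56 ± 0.08 at 30000 fibers (adjusted p = 9.32e-06), and by 0.95 with all its transcripts summed. At 30000 fibers against control it was -0.17 ± 0.08 (adjusted p = 0.0699), and -0.18 with mouse as a block (adjusted p = 0.0435). It was also called lower with summed transcripts (-0.57), with library totals alone (-0.40), without control mouse 2 (-0.22, adjusted p = 0.0271) and without 30000-fiber mouse 3 (-0.22, adjusted p = 0.0421).

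Skil encodes SnoN, a co-repressor that binds SMAD complexes and is induced by TGF-beta. Skil (chromosome 3, 31095058 to 31122577, plus strand; ENSMUST00000029194) stood at 233, 213, 250.2 and 247 CPM in controls, 235, 244, 272 and 273 CPM at 12000 fibers, and 170.0, 150.3, 194 and 183 CPM at 30000 fibers. The 30000-fiber libraries lay below all others, and the control and 12000-fiber libraries overlapped. Skil fell at 30000 fibers by 0.43 ± 0.08 on the log2 scale against control (adjusted p = 9.98e-05) and by 0.55 ± 0.08 against 12000 fibers (adjusted p = 1.02e-05). At 12000 fibers it was 0.12 ± 0.08 (adjusted p = 0.252). The fall against control was 0.65 with library totals alone, and 0.24 with the length correction (adjusted p = 0.00871).

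**Figure D2:**
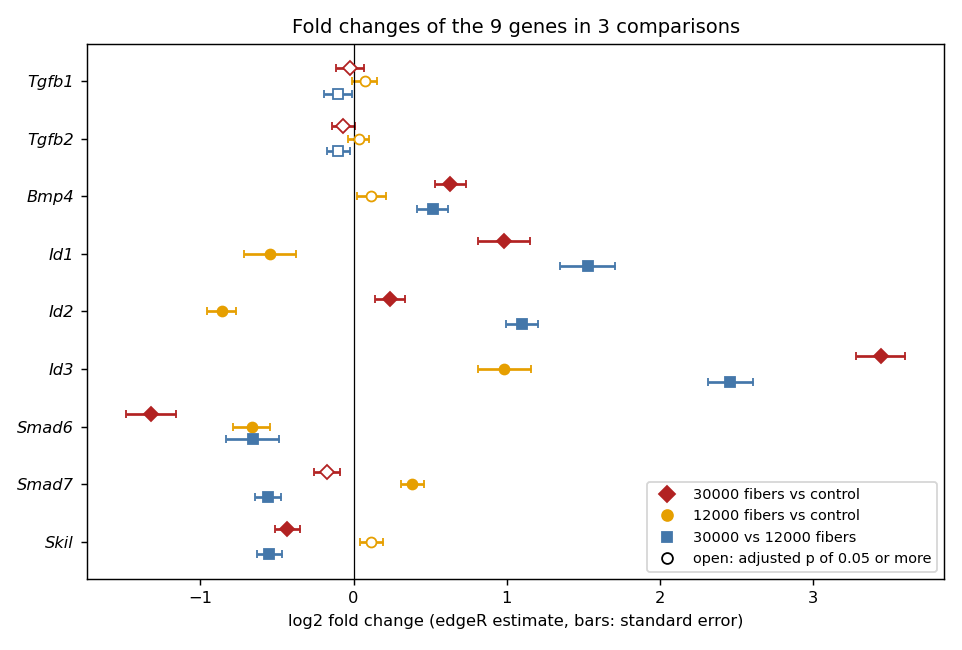
Log2 fold changes (edgeR) of the 9 genes in 3 comparisons, with standard errors. Filled symbols passed at an adjusted p under 0.05. Id3 lies far to the right at 30000 fibers (3.44), Smad6 is left of 0 in all 3 comparisons, and the symbols of Tgfb1 and Tgfb2 are open.

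To set the arms beside each other, the mean log2(CPM + 1) of Smad7 and Skil was subtracted from that of Id1, Id2, Id3 and Smad6 in each library. This is a description and carries no test, since the members and the grouping were chosen with earlier results known. The difference was -2.98 ± 0.06 in controls, -3.50 ± 0.07 at 12000 fibers and -1.87 ± 0.23 at 30000 fibers (SD, n = 4 each), with ranges of -3.02 to -2.89, -3.58 to -3.41 and -2.20 to -1.67. The ranges did not overlap. The mean of the BMP genes thus stood lower relative to that of the TGF-beta genes at 12000 fibers, and higher at 30000 fibers, than in controls. The BMP mean was 4.08 in controls, 3.81 at 12000 fibers and 4.89 at 30000 fibers, and the TGF-beta mean 7.06, 7.31 and 6.76. The 4 BMP genes do not move as 1 group: Smad6 fell at both doses while Id3 rose at both. At 30000 fibers against control the log2 fold changes were 3.44 for Id3, 0.98 for Id1, 0.24 for Id2 and -1.32 for Smad6. The higher BMP mean at that dose therefore rests largely on Id3, and a mean without Id3 was not computed.

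**Figure D3:**
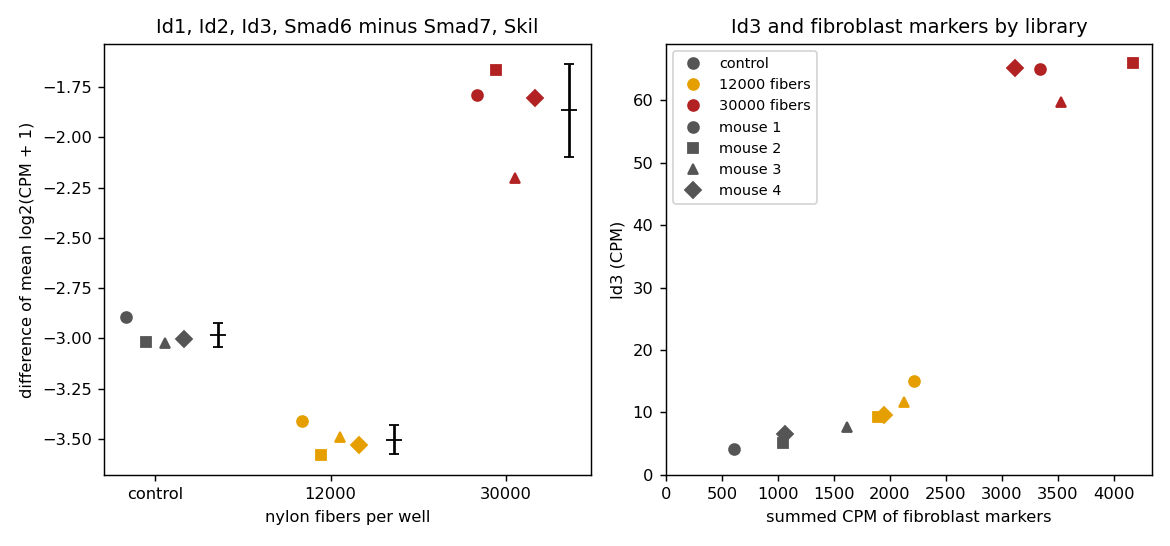
Left, the mean log2(CPM + 1) of Id1, Id2, Id3 and Smad6 minus that of Smad7 and Skil in each epithelial library by fiber number, with mean and SD. Right, Id3 CPM against the summed CPM of 13 fibroblast markers in the same libraries. The difference is lowest at 12000 and highest at 30000 fibers, and Id3 and the marker sum are both highest at 30000 fibers.

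Per length, the order of the genes changed with the fibers. In CPM per kilobase of transcript, controls ran from Skil (35.1 ± 2.49, SD) and Tgfb1 (31.4 ± 1.45), whose ranges overlapped, through Tgfb2 (20.4), Id2 (19.9), Bmp4 (18.1), Smad7 (17.5) and Id1 (15.0), of which each overlapped with the next, to Smad6 (5.26) and Id3 (4.61), which also overlapped. At 12000 fibers Skil (38.1) and Tgfb1 (33.0) overlapped at the top, followed without overlap by Smad7 (22.8), Tgfb2 (20.9) and Bmp4 (19.6), which overlapped among neighbours. Id2 (11.0), Id1 (10.2) and Id3 (8.93) came next, and Smad6 (3.31) was lowest. At 30000 fibers Id3 was highest (50.1 ± 2.22), with no overlap with the next. Tgfb1 (30.8), Id1 (29.9), Bmp4 (28.1), Skil (26.0) and Id2 (23.6) overlapped as neighbours, and Tgfb2 (19.5), Smad7 (15.5) and Smad6 (2.11) each stood apart.

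For each member, the gene most like it over the 12 libraries was looked up, as a description. Likeness was the root mean square difference of log2(CPM + 1), each gene centred on its own mean, over all genes tested. Id3 was most like Hoxa5 (0.173), which stood at 5.21 ± 1.60 CPM in controls, 10.7 ± 1.33 at 12000 fibers and 56.0 ± 2.96 at 30000 fibers. Hoxa5 is a gene that the study itself picked from these organoids and that lung fibroblasts are known to express. The gene most like Smad6 was Cracr2b (0.117), that most like Smad7 was Lrrc8b (0.0577), and that most like Skil was Cyld (0.0552). Id1 was most like Gtf2a2 (0.179), Id2 like Gstm1 (0.131) and Bmp4 like Rap1a (0.0811). Tgfb1 was most like Ythdf2 (0.0796) and Tgfb2 like Cpsf3 (0.0580). Each distance has to be read beside the member's own spread around its mean on the same scale. That spread was 1.40 for Id3, 0.647 for Id1, 0.521 for Smad6, 0.471 for Id2 and 0.299 for Bmp4. It was 0.262 for Skil, 0.252 for Smad7, 0.138 for Tgfb1 and 0.0945 for Tgfb2. Small distances of the flat genes Tgfb1 and Tgfb2 are therefore not read as close matches.

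The counts of further listed transcripts, relative to the representative transcript of the same gene, differed at 30000 fibers, in these genes as in many others. The 9 genes had 35 listed transcripts, 26 besides the representative ones. Set against the representative transcript of the same gene, all 26 overlapped between 12000 fibers and control. Over the 55911 further transcripts of all genes tested whose representative transcript was counted in every library, 2.13% were lower and 3.69% higher without overlap at 12000 fibers. At 30000 fibers 14 of the 26 were lower than in controls without overlap, 1 was higher and 11 overlapped, while over all genes 47.2% were lower and 11.2% higher. The count is near that background and is not read as particular to these genes. A second Smad7 transcript held 16.7% of the representative count at 30000 fibers (range 13.2% to 20.3%), against 50.0% in controls (46.2% to 54.4%). A retained-intron transcript of Id3 held 9.86% at 30000 fibers and 50.6% in controls, and a single-exon transcript of Id2 held 10.2% and 32.0%. A Tgfb1 transcript annotated for nonsense-mediated decay was the 1 that was higher, at 48.9% (45.6% to 55.4%) at 30000 fibers against 21.7% (21.4% to 22.2%) in controls. No source used here gives how reads were shared among transcripts. A second Id2 transcript had 100% of the representative count in every control library. Whether 1 read was counted on several transcripts was not tested, and values with transcripts summed may then count it more than once. The part of the lower depth of these libraries in the shift was not tested.

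**Figure D4:**
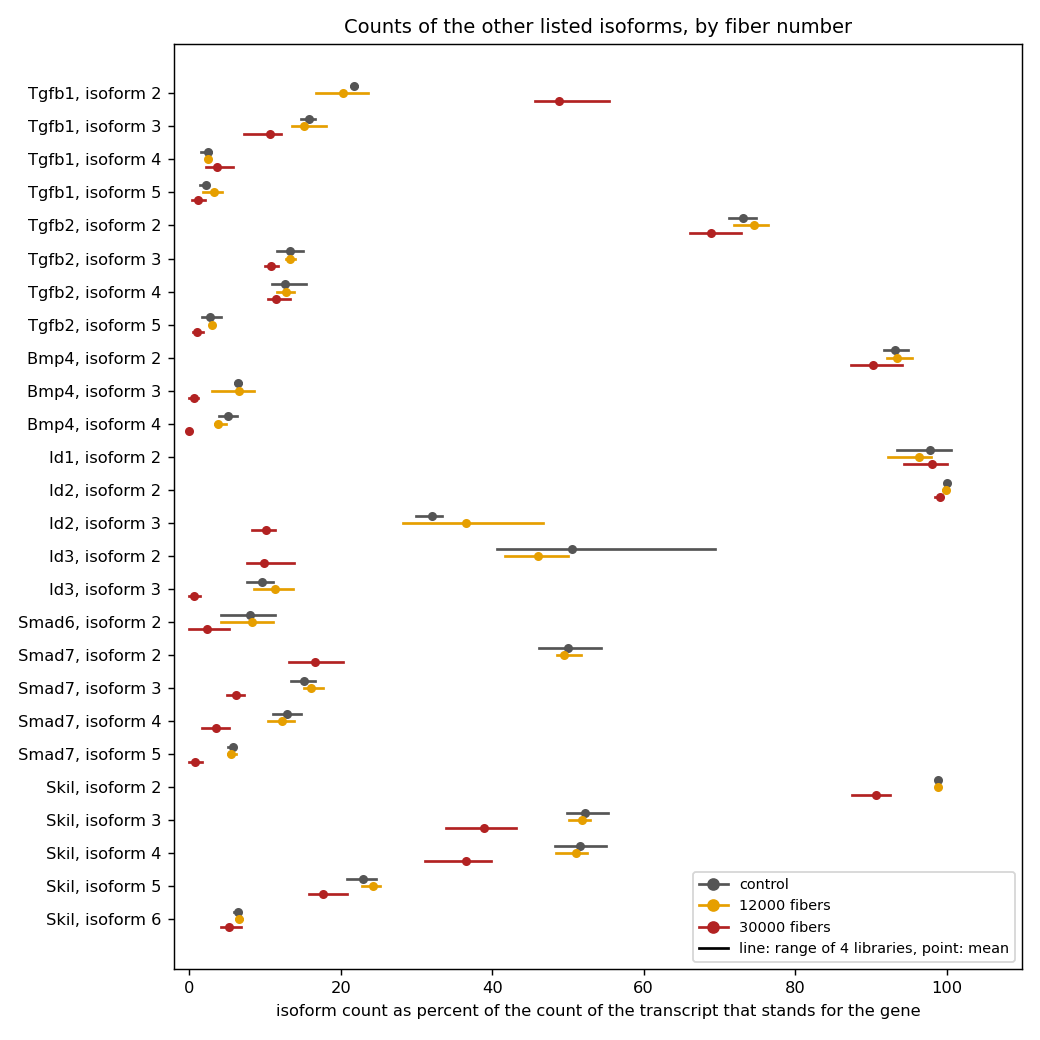
Count of each further listed transcript of the 9 genes as a percent of the count of the transcript that stands for the gene. Points are means and lines the range of 4 libraries, by fiber number. At 30000 fibers most points lie left of those of controls and 12000 fibers, and Tgfb1 isoform 2 lies to the right.

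The rest of the pathway was taken from 10 lists of other TGF-beta and BMP genes, 74 in all, of which 71 were tested (Chrdl1, Sostdc1 and Msx2 had no row). At 12000 fibers 42 passed, 24 higher and 18 lower, and at 30000 fibers 51 passed, 20 higher and 31 lower, against control. Between 30000 and 12000 fibers 45 passed, 18 higher and 27 lower. Of all genes tested, 38%, 65.6% and 55.4% passed in these comparisons, and no count of the lists, together or singly, is read as particular to the pathway. The median log2 fold changes were 0.05, -0.14 and -0.11, beside -0.003, -0.03 and -0.01 over all genes tested. With library totals alone the pathway splits were 15 higher and 42 lower at 30000 fibers against control, and 12 higher and 34 lower between the doses. With the fibroblast covariate 20 passed at 12000 fibers (5 higher, 15 lower) and 32 at 30000 fibers (7 higher, 25 lower). Since the fibroblast sums did not overlap between the groups, a call lost with the covariate is not read as a fibroblast effect.

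BMP ligands other than Bmp4 fell: 4 of 5 at each dose against control, with Bmp2 higher at 30000 fibers (0.71 ± 0.20, adjusted p = 0.00412). Bmp7 stood at 2.21 ± 0.695 CPM at 12000 fibers and 2.00 ± 1.00 CPM at 30000 fibers, against 16.8 ± 3.64 CPM in controls (SD, n = 4), log2 fold changes of -2.91 and -3.04. Bmp5 fell by 1.00 on the log2 scale at 12000 fibers, and its log2 fold change was -1.90 at 30000 fibers, with 28.3 ± 2.14 and 15.1 ± 2.72 CPM against 56.3 ± 7.45 CPM in controls. Bmp3 fell by 0.94 at 12000 fibers, and Bmp6 was lower at 30000 fibers (log2 fold change -2.98). At 30000 fibers Bmp6 stood near the floor, at 0.818 ± 1.05 CPM with a lowest value of 0, against 6.19 ± 1.19 CPM in controls. So Bmp4 stood apart in direction from Bmp3, Bmp5, Bmp6 and Bmp7 at 30000 fibers. A difference between them was not tested.

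Of the TGF-beta and activin ligands, 1 rose and 1 fell at 12000 fibers, and 1 rose at 30000 fibers, of 5. Gdf11, a TGF-beta family ligand that signals through activin receptors, rose by 0.96 ± 0.18 at 12000 fibers and 1.98 ± 0.19 at 30000 fibers, to 16.4 ± 2.32 and 33.3 ± 7.31 CPM against 8.56 in controls; with the fibroblast covariate the first did not pass (0.36). Inha, the inhibin alpha subunit, fell by 0.97 at 12000 fibers, and did not pass with the covariate (-0.77, adjusted p = 0.0521).

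The 11 genes of latency and activation split by dose, with 5 higher and 2 lower at 12000 fibers and 2 higher and 6 lower at 30000 fibers. Ltbp4, which binds latent TGF-beta to the matrix, fell by 2.13 ± 0.21 at 12000 fibers, to 22.6 CPM against 98.8 CPM in controls. Lrrc32, which anchors latent TGF-beta at the cell surface, rose by 0.93 and 1.86 at the 2 doses, and with the fibroblast covariate neither passed (0.28 and 0.61). Bmp1, a protease that cleaves matrix proteins and BMP antagonists, rose by 0.87 at 12000 fibers. Ltbp3 fell by 0.76 at 30000 fibers, and Itgb6, a subunit of an integrin that activates TGF-beta, fell by 0.74.

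Receptors moved in part. Tgfbr3, a co-receptor also called betaglycan, rose by 1.04 ± 0.24 at 12000 fibers and by 2.29 ± 0.25 at 30000 fibers, and the first did not pass with the fibroblast covariate (0.28). Acvr1b and Acvr2a, receptors for activin, were lower at 30000 fibers (-0.68 and -0.65). In all 1 of 7 TGF-beta and activin receptors rose and none fell at 12000 fibers, and 2 rose and 3 fell at 30000 fibers. Of the 5 BMP receptors, 1 rose and 2 fell at 12000 fibers and 2 rose and 2 fell at 30000 fibers. Bmpr1b fell (-1.91 ± 0.18 and -1.90 ± 0.23), to 5.98 and 6.04 CPM against 22.6 CPM. Bmpr1a fell (-0.21 and -0.27), and Bmpr2 rose by 0.19 at 12000 fibers. The Bmpr1a change did not pass with the fibroblast covariate at either dose or with the length correction at 30000 fibers. That of Bmpr2 did not pass with the covariate, without control mouse 1 or without 12000-fiber mouse 2. Acvrl1 rose by 0.92 at 30000 fibers, and not with the covariate (0.51, adjusted p = 0.224).

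Of the 10 extracellular antagonists tested, which bind ligands and keep them from receptors, 5 rose and 3 fell at each dose. Fst, which binds activin, was lower at both doses (log2 fold changes -1.82 ± 0.20 and -1.38 ± 0.23), as was Nbl1 (-0.63 and -0.94). Fstl3 rose by 0.69 at 12000 fibers. Bmper rose by 2.06 ± 0.32 at 30000 fibers, and was 0.02 with the fibroblast covariate. Between the doses Grem1, a BMP antagonist, rose by 1.28 ± 0.30 to 1287 ± 117 CPM at 30000 fibers, against 531 ± 47.6 CPM at 12000 fibers, and Nog, another, fell by 1.04.

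Among SMAD transducers only Smad9 passed at 12000 fibers (0.90 ± 0.34, adjusted p = 0.0429), at 1.98 CPM against 1.04 CPM in controls, and it did not pass under 12 of the alternatives. At 30000 fibers Smad3 fell by 0.43 ± 0.07, Smad5 fell by 0.25, and Smad4 rose by 0.36 ± 0.07. Smad4 was -0.06 with transcripts summed and did not pass with library totals alone (0.14), and Smad5 did not pass with the fibroblast covariate, with transcripts summed or with the length correction. Among 7 nuclear and ubiquitin brakes, proteins that limit SMAD activity, 4 rose and 1 fell at 12000 fibers and 2 rose and 3 fell at 30000 fibers. Smurf1, a ubiquitin ligase for receptors and SMADs, rose by 0.30 at 12000 fibers. Smurf2, a related ligase, rose by 0.23 there, and did not pass with the fibroblast covariate (0.11). Tgif2, a SMAD co-repressor, fell by 0.67 at the same dose. Tgif1 and Pmepa1 rose by 0.68 and 0.61 at 30000 fibers, and Ldlrad4 fell by 1.00.

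Further targets moved in both directions. Of 10 other TGF-beta targets, 5 rose and 2 fell at 12000 fibers, and 3 rose and 5 fell at 30000 fibers. Tgfbi, a matrix protein, fell (log2 fold changes -1.51 ± 0.16 and -2.21 ± 0.21 at the 2 doses), to 22.4 ± 1.88 and 13.8 ± 1.46 CPM against 63.8 CPM. Ccn2, connective tissue growth factor, rose by 0.70 at 12000 fibers, to 2091 ± 98.1 CPM against 1290.5 CPM. Cdkn1a, the cell cycle inhibitor p21, rose by 1.05 ± 0.08 at 30000 fibers, and Junb fell by 0.66. Of the 5 other BMP targets tested, 1 rose and 3 fell at each dose. Hey1 fell (log2 fold changes -4.08 ± 0.29 and -4.67 ± 0.42), to 0.926 and 0.622 CPM against 15.6 ± 4.37 CPM. Id4, the further ID gene, fell (-2.68 ± 0.32 and -1.88 ± 0.36), to 2.19 and 3.71 CPM against 13.5 CPM. The second of these did not pass with the fibroblast covariate (-0.75). Msx1 rose by 1.81 and 2.91, to 1.46 and 3.12 CPM against 0.418 CPM in controls, and did not pass with the covariate at either dose.

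Between the doses, the 24 genes of smallest p in these lists split into 13 lower and 11 higher at 30000 than at 12000 fibers. The log2 fold changes were -0.95 ± 0.07 for Ltbp3, -0.81 for Itgb6 and -0.58 for Itgav, the alpha subunit that pairs with it. Ccn2 fell by 0.94 ± 0.10, to 1089 CPM at 30000 fibers against 2091 CPM at 12000 fibers, Junb fell by 0.76 and Cdkn1a rose by 0.79. Among the brakes Ldlrad4 fell by 0.85, Smurf1 fell by 0.66 and Tgif1 rose by 0.59. Gdf11 rose by 1.02 and Tgfbr3 by 1.26, while Acvr1b (-0.61), Acvr2a (-0.48), Smad3 (-0.48) and Bmp5 (-0.90) fell. Smad4 rose by 0.36, and was -0.04 with transcripts summed and 0.16 with library totals alone (adjusted p = 0.0523). Bmper rose by 0.97, was -0.03 with the fibroblast covariate, and did not pass without 30000-fiber mouse 2 (0.76). Smad2 fell by 0.19, was 0.003 with the length correction, and did not pass under 6 of the alternatives. Acvrl1 rose by 0.63, and did not pass with the fibroblast covariate (0.45). Msx1 rose by 1.10, and did not pass with that covariate (0.79), without 30000-fiber mouse 2 (1.00) or without 30000-fiber mouse 3 (0.87). Inha rose by 0.67 and did not pass under 6 of the alternatives. Bmp3 rose by 0.39 (adjusted p = 0.0469) and did not pass under 10 of them.

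**Figure D5:**
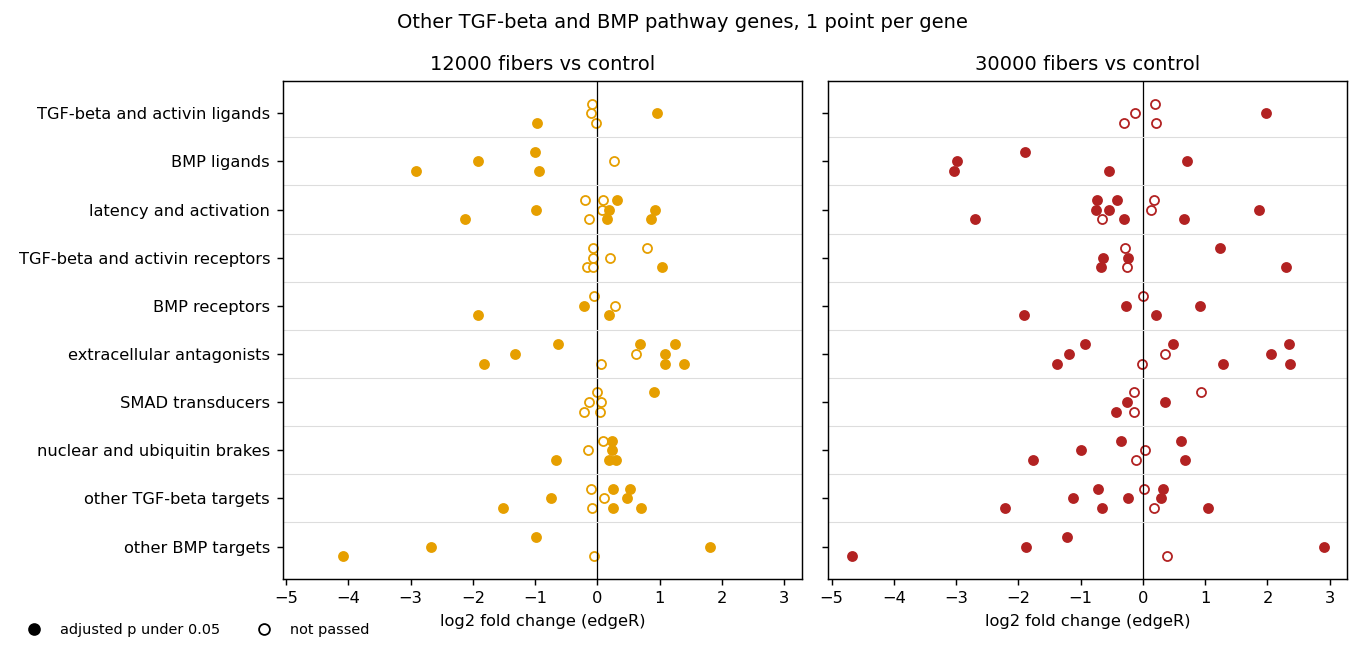
Log2 fold changes (edgeR) of the 71 other TGF-beta and BMP pathway genes tested, by list, at 12000 fibers and 30000 fibers against control. Each point is 1 gene, filled where the adjusted p is under 0.05. Among BMP ligands most points lie left of 0 at both doses, and Hey1 lies farthest left among other BMP targets.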

How the data were processed

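Per the labels' protocols and the submitters' processing notes, RNA of 24 libraries (6 groups of 4) was sequenced, trimmed with cutadapt 1.12 and aligned with HISAT2 2.1.0 to mm10; bcl2fastq and FastQC were also used. For the counting program, annotation, strand setting and barcode use, the sources used here state nothing. Deposited values are raw counts per transcript, not normalized by the authors, of which the 12 epithelial columns were used. The table names 71081 transcripts; the fibroblast columns hold 107814 entries with no relation to the named rows (Spearman rho 0.0467). Of the transcripts, 70529 are in GENCODE M21.

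Counts of representative transcripts were fitted with edgeR 4.0.16 (R 4.3.3; filterByExpr, TMM, robust quasi-likelihood F test, 9 residual degrees of freedom), with Benjamini-Hochberg adjustment over 13759 genes and a threshold of 0.05. Tested on simulated data, the fit missed some of the smaller changes, more of them at 30000 fibers, and the recovery limit set for this test was relaxed after its first run. Alternatives were DESeq2 1.42.0, other scalings and filters, summed transcripts, a mouse block, a fibroblast covariate, a loess correction (span 0.5) for transcript length, the compared groups alone and each library left out. The p-values measure the spread between 4 mice per group.

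Labels tie equal numbers to the same mouse, so numbers pair libraries; deviations of same-mouse libraries correlated by 0.09 on average (range -0.03 to 0.18, 12 pairs). Named genes were the 9 members, up to 3 genes of smallest p per pathway list and comparison, and the most similar gene of each member. Bmp2 of the lists was also named, chosen after its values were seen. Of the genes this rule names, 1 is not reported here. The members and lists were chosen with earlier results of these data known.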

Additional observations from a re-analysis of the deposited data

Results flagged for a closer look

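Among the 27 sets of 4 libraries examined (9 genes in 3 groups), 2 had a library far from the other 3; chance gives about 1 in 20. Id3 in mouse 3 at 30000 fibers stood at 59.8 CPM, and the other 3 libraries of that group at 65.0 to 66.0 CPM. Smad6 in mouse 3 at 12000 fibers stood at 10.6 CPM, and the other 3 at 9.50 to 9.65 CPM. Both lie within the groups' separation from the other doses, and leaving out either library kept the calls of Id3 and Smad6.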

How the results depend on the processing

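The 27 results for the 9 genes (3 comparisons each) were recomputed under 21 alternatives each, and 535 of the 567 values kept their direction and their side of the threshold, 16 results in all 21. With the fibroblast markers as a covariate, 2 members passed at 12000 fibers against control (5 without it), 20 pathway genes at 12000 fibers (42 without it) and 32 at 30000 fibers (51 without it), and 1936 and 4771 of all genes (5231 and 9026 without it); the cause was not tested. With transcripts summed, the difference between the arms was 1.29 at 30000 fibers over control and 1.80 over 12000 fibers. The direction turned for Tgfb1 with transcripts summed (0.32 at 30000 fibers against control, 0.25 between the doses) and for Tgfb2 at 30000 fibers against control with transcripts summed (0.00124), with the covariate (0.00321) and with the length correction (0.0935, and 0.0436 between the doses); the summed Tgfb1 values passed the threshold, the Tgfb2 values did not, and the cause was not tested. Leaving out 1 library at a time, Tgfb1 ranged from -0.11 to 0.0773 at 30000 fibers against control and from -0.18 to 0.00266 between the doses, and Tgfb2 from -0.0242 to 0.0816 at 12000 fibers. In the same runs 4 to 5 members passed at 12000 fibers, 5 to 6 at 30000 fibers and 7 to 7 between the doses, and 34 to 43, 48 to 53 and 37 to 49 pathway genes. With mouse as a replicate block, 5, 7 and 7 members passed in the 3 comparisons, and 5521, 9141 and 7769 of all genes; apart from Smad7 at 30000 fibers (-0.18, adjusted p = 0.0435) it changed no call of a member. Of 77 named pathway results, 53 kept their call in all alternatives, 24 did not in at least 1, and 4 turned direction. The 30000-fiber libraries are the shallowest, which limits low genes such as Smad6 (15 to 23 counts per library) most.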
